A study of Homo sapiens with 8 samples.

Results

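The knockout of ZBTB48 was compared with wild type in U2OS cells, a human osteosarcoma line, that had all received interferon gamma (IFNγ). The comparison used 4 of the 8 libraries of the study: the WT clones WT_4 and WT_5 and the ZBTB48 KO clones KO_C5 and KO_D2, all treated with IFNγ at 250 U/ml. The labels put the treatment at 24 h, whereas the text of the study describes a longer induction, so its duration is uncertain. Each library was made by FAIRE-seq, in which sonicated, formaldehyde-fixed chromatin is extracted with phenol and the DNA free of nucleosomes is sequenced, so that a peak marks accessible chromatin. Each genotype was represented by 2 clonal lines, and a difference between genotypes cannot be told apart from a difference between these clones.

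On chromosomes 1 to 22 and X the peaks of the 4 lists were merged wherever they shared 1 bp or more, which gave 44280 regions. A region was called WT-only when both WT libraries and neither KO library had a peak in it, and KO-only in the opposite case. There were 647 WT-only regions, which is 1.46% of all regions, and 412 KO-only regions, which is 0.93%. A further 14279 regions, called shared, were present in each of the 4 lists. The other 28942 regions did not follow genotype, and 10786 of them had a peak in WT_5 alone.

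ZBTB48, also called TZAP, is a zinc finger protein that binds telomeric TTAGGG repeats and also the promoters of a small set of genes. Among its reported targets are MTFP1, which encodes a mitochondrial fission protein, and CIITA, which encodes the master regulator of MHC class II genes. Outside antigen-presenting cells, promoter IV is regarded as the main responder to IFNγ, whereas promoter III is best known from B lymphocytes. In U2OS clones, however, the study measured the strongest induction by IFNγ for the promoter III transcript. Its FAIRE-qPCR also gave a higher signal at promoter III in WT than in KO clones, whereas promoters I and IV were unaffected by the loss of ZBTB48. Its FAIRE-seq tracks under IFNγ showed open chromatin at promoter III in WT but not in KO clones. Accessible promoters tend to be GC-rich and nucleosome-poor, whereas distal accessible sites often carry letters bound by AP-1 factors (FOS and JUN).

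The stretch before the start site of MTFP1 is shown first because MTFP1 is a reported target of ZBTB48 (chr22:30425473-30425622, GRCh38, plus strand, read from the reference genome). It holds no TTAGGG on either strand, and so no letters are in capitals. The absence of these letters cannot tell whether ZBTB48 binds there, since a CIITA site reported by the study lacks them too.
MTFP1 upstream: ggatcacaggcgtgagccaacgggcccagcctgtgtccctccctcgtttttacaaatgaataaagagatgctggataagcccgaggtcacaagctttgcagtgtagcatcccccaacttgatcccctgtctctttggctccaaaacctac

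The next sequences are examples of the letters that are counted over all regions further on. Each is the 201 bp around a summit, from the regions with the highest mean rank in their class. Capitals in the KO-only sequences mark TGANTCA, the letters bound by AP-1, which 3 of the 5 strongest KO-only regions held. Capitals in the WT-only sequences mark GGGCGG or its reverse complement, the letters bound by SP and KLF factors, and neither of these sequences held TGANTCA. The KO-only windows that are not printed held no TGANTCA: that of ENSG00000264063 had 2 matches of GGGCGG and a GC content of 82.1%, and that of AMIGO2 had neither motif. The other 3 strongest WT-only windows touch untranslated exons and are not printed. The AFF3 window is chr2:100013928-100014128 (intron), that of NHIP is chr22:49099558-49099758 (between genes) and that of ENSG00000266401 is chr18:3652844-3653044 (intron and exon of non-coding RNA). The YWHAEP7 window is chr17:37844755-37844955 (intron) and that of ENSG00000279942 is chr6:37566406-37566606 (between genes).
KO-only, AFF3: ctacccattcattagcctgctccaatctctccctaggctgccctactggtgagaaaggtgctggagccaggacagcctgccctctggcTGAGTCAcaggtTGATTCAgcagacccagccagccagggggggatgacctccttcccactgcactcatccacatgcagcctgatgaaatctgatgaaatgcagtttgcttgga
KO-only, NHIP: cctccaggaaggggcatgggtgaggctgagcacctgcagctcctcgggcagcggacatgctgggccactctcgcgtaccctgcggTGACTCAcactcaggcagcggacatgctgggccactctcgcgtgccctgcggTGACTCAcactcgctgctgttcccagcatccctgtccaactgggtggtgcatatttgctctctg
KO-only, ENSG00000266401: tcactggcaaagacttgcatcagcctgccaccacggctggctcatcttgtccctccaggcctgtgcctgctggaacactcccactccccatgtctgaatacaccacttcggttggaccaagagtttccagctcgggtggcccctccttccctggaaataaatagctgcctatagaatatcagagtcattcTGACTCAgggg
WT-only, YWHAEP7: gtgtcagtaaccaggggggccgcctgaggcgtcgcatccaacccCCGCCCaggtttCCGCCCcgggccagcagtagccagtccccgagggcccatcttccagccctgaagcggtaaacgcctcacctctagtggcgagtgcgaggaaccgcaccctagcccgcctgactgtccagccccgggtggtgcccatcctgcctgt
WT-only, ENSG00000279942: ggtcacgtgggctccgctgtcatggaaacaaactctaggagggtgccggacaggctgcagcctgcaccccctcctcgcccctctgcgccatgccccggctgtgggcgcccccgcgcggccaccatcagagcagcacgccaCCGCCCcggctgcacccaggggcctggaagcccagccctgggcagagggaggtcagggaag

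The libraries did not sort by genotype. The list of WT_4 held 18913 peaks and that of WT_5 37533, with 27457 for KO_C5 and 24727 for KO_D2 between them. The WT mean was 28223 ± 13166 peaks and the KO mean 26092 ± 1930 (SD, n = 2 and 2, exact permutation p = 1, two-sided). With 2 libraries against 2, the smallest two-sided p that this test allows is 0.333. Shared coverage of the lists (bp in both over bp in either) was lowest between the 2 WT libraries, at 0.415, and highest between the 2 KO libraries, at 0.590, and WT_5 shared 0.565 with KO_C5. Over the shared regions, the ranks of WT_4 correlated with those of the other libraries at 0.762 to 0.764, and those of WT_5 with KO_C5 at 0.919. WT_4 thus stood apart from the other 3 libraries, and WT_5 was closer to KO_C5 than to its own genotype. After all lists were cut to 18913 peaks, WT_5 and KO_C5 had the highest shared coverage, at 0.657 (0.640 between the KO libraries), and WT_4 and WT_5 again the lowest, at 0.506.

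**Figure D1:**
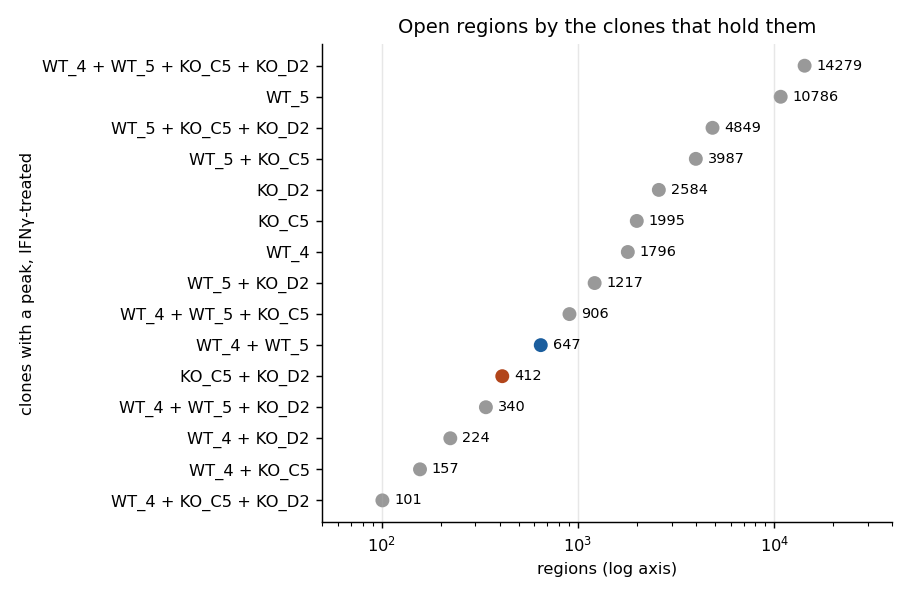
Number of regions (x axis, log scale) for each combination of IFNγ-treated clones with a peak (y axis), with WT-only in blue, KO-only in red and the others in grey. The 647 WT-only and 412 KO-only regions are small beside the 10786 regions of WT_5 alone and the 14279 shared regions.

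The local background differed between the genotypes in these libraries. The deposited values allow the fragments piled up at a summit and the local background to be solved for each peak. At the shared regions the median local background was 1.01 fragments in WT_4 and 1.29 in WT_5, against 2.73 in KO_C5 and 3.21 in KO_D2. As a multiple of the lowest background of the same library it was 1.63 and 1.68 in the WT libraries and 3.02 and 2.98 in the KO libraries (n = 2 and 2, exact permutation p = 0.333, the smallest this design allows). Both KO libraries therefore lay above both WT libraries. At these backgrounds a peak needed 6 and 7 fragments in the WT libraries and 10 and 11 in the KO libraries. The WT-only regions had median summit pileups of 10 and 12 fragments over a median local background of 0.825 and 0.998, and the KO-only regions 17 and 19 fragments over 1.88 and 2.13. The part of this background in the WT-only and KO-only counts was not tested.

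**Figure D2:**
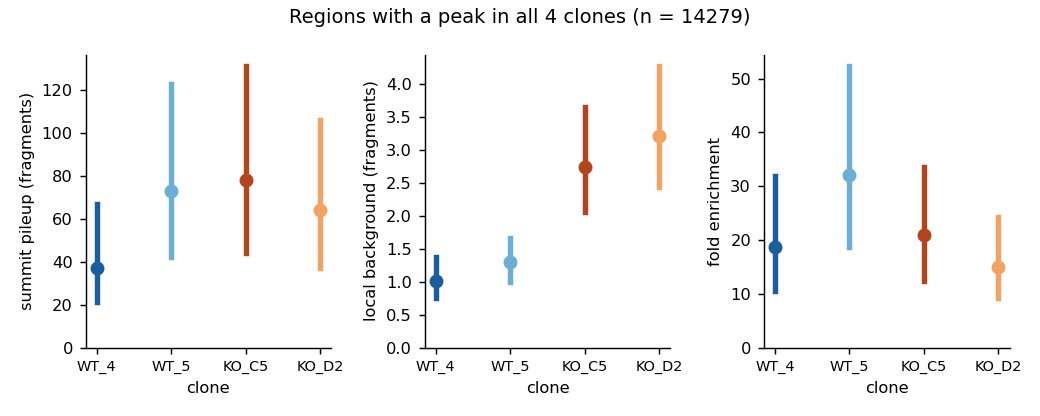
Summit pileup (left, fragments), local background (middle, fragments) and fold enrichment (right) at the 14279 shared regions by clone (x axes), with the median as a point and the quartiles as a bar over regions. The median backgrounds are 1.01 and 1.29 in the WT libraries and 2.73 and 3.21 in the KO libraries, with both KO medians above both WT medians.

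WT-only and KO-only regions lay in different places. Of the 647 WT-only regions, 307 (47.4%) lay within 500 bp of a transcription start site (TSS), which is near the 42.5% of all regions. Only 75 of the 412 KO-only regions (18.2%) did, whereas 189 (45.9%) lay in introns and 136 (33.0%) between genes. The shared regions were mostly promoters (80.6%). Their median width was 724 bp, against 422 bp for WT-only and 317 bp for KO-only regions. With the lists cut to equal length there were 349 WT-only and 507 KO-only regions among 26701, so the order of the counts turned. Of these 61.6% and 23.3% were promoters, against 56.8% of all regions of the cut lists, so the WT-only share was again near that of all regions. Regions with a peak in a single library resembled the KO-only class: 23.2% were promoters in WT_4 alone, 21.6% in WT_5 alone, 15.2% in KO_C5 alone and 13.7% in KO_D2 alone. Both classes were weak, with a median within-list percentile (100 is the strongest −log10 p of a library) of 21.3 for WT-only and 21.0 for KO-only regions against 70.5 for shared regions.

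**Figure D3:**
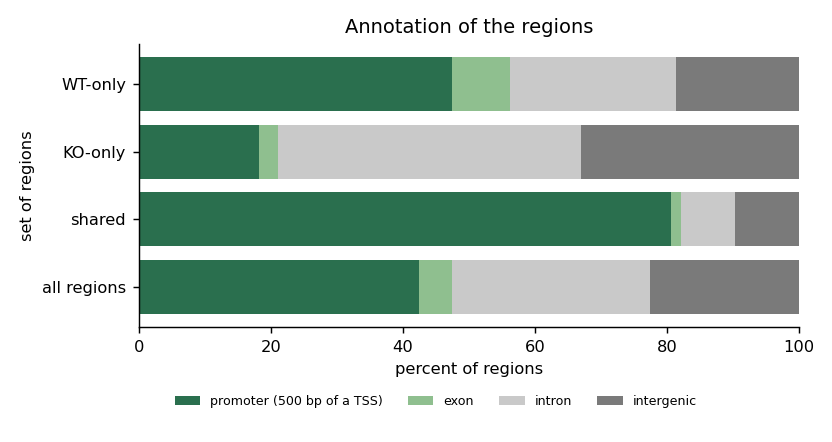
Share of regions (x axis, percent) at promoters, exons, introns and between genes, in 1 stacked bar each for WT-only, KO-only, shared and all regions (y axis). Promoters make up 47.4% of WT-only and 18.2% of KO-only regions, against 42.5% of all regions.

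Chromosomes were not equally represented. Chromosome 2 held 12.6% of KO-only regions but 6.89% of shared and 5.26% of WT-only regions. Chromosome 7 held 8.96% of WT-only regions against 4.89% of shared and 3.64% of KO-only regions, and chromosome 14 held 6.65%, 3.46% and 1.70%. Chromosome copy number in these clones is not known from the lists, and its part in these shares was not tested.

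Counted by gene, 163 of 13966 protein-coding genes with any promoter peak were WT-only (1.17%) and 21 were KO-only (0.15%), where a gene counts only if no other promoter of it had a peak in the opposite genotype. Cutting the lists to equal length left 155 WT-only genes (1.19% of 13011 with any promoter peak) and raised the KO-only genes to 76 (0.58%). The strongest WT-only region was named for YWHAEP7, whose start site lies 10206 bp away (chr17:37844698-37845006), at percentile 52.5 in WT_4 and 63.8 in WT_5. Next came TMEM63C, which encodes a membrane protein related to osmosensitive channels (chr14:77181387-77182412), at percentiles 42.2 and 73.2 and fold enrichments of 10.3 and 21.3. AMDHD2, an enzyme of amino sugar breakdown (chr16:2520118-2520515), was at 57.4 and 47.9, and the zinc finger gene ZNF331 (chr19:53537953-53538248) was at 58.1 and 45.7. ENSG00000279942, on chromosome 6, followed at 40.9 and 62.9. These 5 regions reached about the middle of both WT lists.

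Among WT-only regions at protein-coding promoters the next were the zinc transporter gene SLC39A4, with a mean percentile of 50.5, and SQOR, which oxidises sulfide in mitochondria, with 49.2. CHST14, a sulfotransferase of dermatan sulfate, had 48.8 and SYT3, a synaptotagmin, 48.5. The remaining ones of the strongest 10 were NDST1 (heparan sulfate synthesis, 48.4), PLCH1 (a phospholipase C, 47.9) and a promoter of PIK3CD (the delta catalytic subunit of phosphoinositide 3-kinase, chr1:9651595-9651989, 47.3). Counted by gene, ZNF331, NDST1, PLCH1 and PIK3CD were not WT-only, since a KO library had a promoter peak outside the named region. In equal-length lists AMDHD2, ZNF331, SQOR, NDST1 and PLCH1 each lost the peak of 1 library and were no longer WT-only. TMEM63C, AMDHD2, SQOR, CHST14 and ENSG00000279942 had the same WT-only pattern in the untreated libraries of these clones. ZNF331 and NDST1, in contrast, had peaks in both untreated KO libraries (percentiles 19.6 and 15.2 at ZNF331, 24.4 and 27.4 at NDST1), SLC39A4, SYT3 and PLCH1 had one in 1 of them, and PIK3CD had no untreated peak.

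The strongest KO-only region lay in an intron 14825 bp from the start of AMIGO2, a gene for a neuronal adhesion protein (chr12:47094784-47095180), at percentile 61.0 in KO_C5 and 55.1 in KO_D2. The non-coding gene ENSG00000266401 (chr18:3652749-3653124) followed with 52.2 and 63.6. ENSG00000264063 (chr21:8987906-8988208) had 64.2 and 50.9, and it lies on the short arm of chromosome 21, whose ribosomal repeats are nearly identical to those of other chromosomes, so the source of its reads is uncertain. AFF3, a transcriptional elongation factor gene with its start site 5928 bp away (chr2:100013879-100014203), had 42.8 and 64.5. NHIP, with its start site 46971 bp away (chr22:49099520-49099834), had 39.1 and 66.4. In 4 of these 5 regions the local background was above the lowest of the library in both KO libraries, and it was highest at ENSG00000266401 (3.65 and 4.80 fragments).

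At protein-coding promoters there were 48 KO-only regions, against 278 WT-only ones. The strongest 10 of each were thus taken from unequal numbers, and they do not compare the strength of the classes. The strongest 10, by mean percentile, were IGHMBP2 (a helicase, 42.8), the zinc finger gene ZNF300 (40.5), CCDC74A (39.2), ITGAX (an integrin subunit of myeloid cells, 39.1), MESP2 (a factor of somite formation, 37.3), OGFR (34.1), ANXA2 (annexin A2, 33.0), DLG3 (a synaptic scaffold, 33.0), GNAL (a G protein subunit, 31.9) and XDH (xanthine dehydrogenase, 31.8). All were below the WT-only promoters named above, which came from the larger set. Counted by gene, only ZNF300, CCDC74A, ITGAX and MESP2 were KO-only. The others also had a promoter peak in a WT library, outside the named region. ITGAX and ANXA2 were no longer KO-only in equal-length lists. None of the 10 had the KO-only pattern in the untreated libraries: DLG3 had peaks in both WT clones (percentiles 25.5 and 20.1) and in neither KO clone, and IGHMBP2, OGFR and XDH also had peaks in both untreated WT clones. Markers of myeloid cells had 0, 2, 1 and 0 promoters with a peak of 10 genes listed in WT_4, WT_5, KO_C5 and KO_D2, in that order. Of the 12 B lymphocyte genes 2, 4, 3 and 3 had one (4 in any library), and of the 14 osteoblast lineage genes 6, 9, 8 and 8. With equal-length lists 1 of 3 B lymphocyte genes with any peak was WT-only (33.3%), against 1.19% of all protein-coding genes. In the same lists 1 of 8 osteoblast lineage genes was KO-only (12.5%), against 0.58% of all.

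The reported ZBTB48 targets were the genes the comparison was about, and in the full lists 1 of them, MTFP1, had a WT-only promoter. It had a peak in WT_4 (fold enrichment 7.23, 19 fragments, percentile 31.0) and WT_5 (12.02, 37 fragments, percentile 59.8) and none in KO_C5 or KO_D2 (chr22:30425385-30426306). Its rank by strength was 27 among the 647 WT-only regions. That is 1 of 4 targets with any promoter peak (25%), against 1.17% of all protein-coding genes, and the list comes from the study and its earlier work, so it is not independent evidence of a direction. The nearest KO_C5 peak was 794 bp and the nearest KO_D2 peak 1246 bp from the amplicon, so a promoter defined as 1 kb to either side took in the KO_C5 peak and ended the call. In the untreated clones only WT_5 had a peak there. With equal-length lists CIITA joined MTFP1, so that 2 of 4 targets (50%) were WT-only against 1.19% of all protein-coding genes. Promoter peaks were then present at 4, 4, 2 and 2 targets in WT_4, WT_5, KO_C5 and KO_D2. The call at CIITA did not rest on promoter III, whose amplicon had no peak in any of the cut lists. It also depended on the cut, which shortened the KO lists but not that of WT_4.

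The other targets had peaks in all 4 libraries, except VWA5A, which had none. SNX15, a sorting nexin gene, was at percentiles 71.8 and 80.1 in WT_4 and WT_5 and at 38.1 and 54.0 in KO_C5 and KO_D2, with fold enrichments of 21.6, 28.3, 9.11 and 11.2. PXMP2, a gene for a peroxisomal membrane protein, was at 91.9 and 94.1 in WT against 84.6 and 78.1 in KO. CIITA had its shared region at promoter IV (chr16:10878680-10879099), at 22.7 and 55.0 in WT against 7.80 and 19.7 in KO, while KO_C5 also had a peak at percentile 23.4 at another of the start sites. When ranks were set anew over the shared regions and turned into normal scores (0 is the middle rank and 1 lies 1 SD above it), the WT minus KO difference was 1.06 for SNX15 (95% confidence interval 0.25 to 1.87, limma, adjusted p = 0.988), 0.70 for PXMP2 (−0.01 to 1.42, adjusted p = 0.988) and 0.73 for the CIITA promoter IV region (−0.13 to 1.58, adjusted p = 0.988). None passed the test over all shared regions. In all 3 regions both WT scores lay above both KO scores, which was also true of 2550 of the 14279 shared regions (17.9%), with the reverse in 1971 (13.8%).

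**Figure D4:**
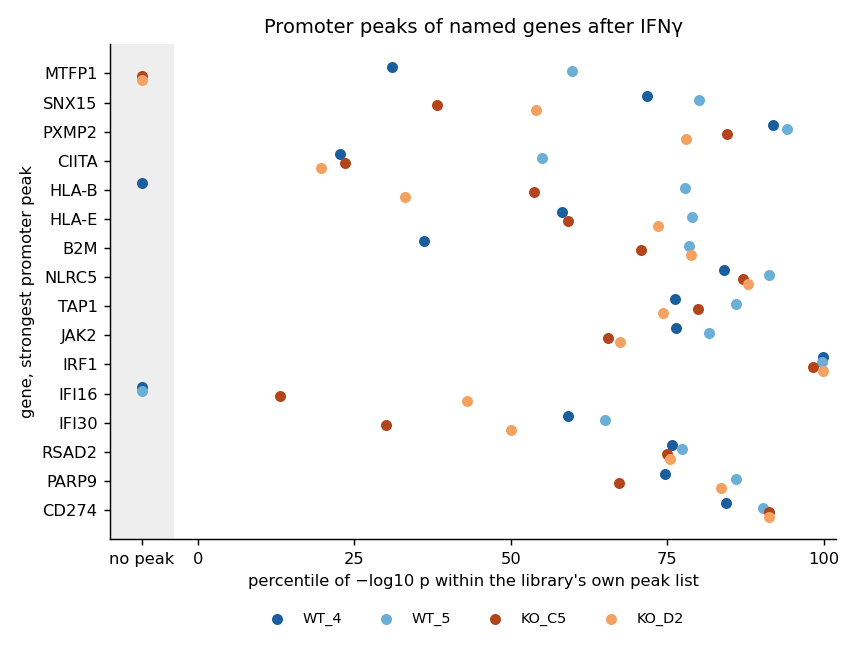
Within-list percentile of −log10 p (x axis, 100 is the strongest peak) at the promoters of ZBTB48 targets and of selected IFNγ response and MHC class I genes (y axis), 1 point per library, with libraries lacking a peak in the grey strip at the left. Both WT points lie above both KO points at SNX15 (71.8 and 80.1 against 38.1 and 54.0), and MTFP1 has points in the WT libraries only.

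At the CIITA locus the peaks were read at the amplicons of the study. The promoter III amplicon, in an intron, had a peak only in WT_5, with 17 fragments, a fold enrichment of 5.41 and percentile 27.5, and the nearest peak of the other libraries was 1502 to 1674 bp away. With equal-length lists it had none in any library. The lists thus differ from the FAIRE-seq tracks of the study, which showed promoter III open in its WT clones, since WT_4 had no peak there. The promoter IV amplicon (chr16:10878681-10878785, intron) had a peak in WT_5 (percentile 55.0), KO_C5 (7.80) and KO_D2 (19.7), and the nearest peak of WT_4 lay 68 bp from it. A window 500 bp wider gave all 4 libraries a peak there. The site 6 to 7 kb upstream was covered in WT_5 (percentile 39.5), KO_C5 (42.9) and KO_D2 (17.3). Promoter I and the gene desert amplicon had no peak in any of the 4 libraries, and those of ACTB and GAPDH had one in each. With equal-length lists the promoter IV amplicon had a peak in 1 WT library and 0 KO libraries, and the promoters of CIITA taken as a whole had peaks in both WT libraries and in neither KO library.

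The promoter of ZBTB48 itself was accessible in each of the 4 lists, at percentiles 83.7 and 95.3 in WT_4 and WT_5 and 72.2 and 90.1 in KO_C5 and KO_D2. An accessible promoter says nothing of the protein, so the peaks give no check of the knockout.

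The IFNγ response genes were accessible in both genotypes. Of the 16 IFNγ signalling genes 14 had a promoter peak in WT_4 and 15 in each of the other 3 libraries. IRF1, an early target and mediator of IFNγ, was at percentiles 99.8, 99.8, 98.3 and 99.8 in WT_4, WT_5, KO_C5 and KO_D2. JAK2, the receptor kinase, was at 76.3 and 81.6 in WT and 65.5 and 67.4 in KO, with a WT minus KO difference in score of 0.49 (95% confidence interval −0.25 to 1.23). IRF2, a relative of IRF1, had 93.6 and 93.0 against 76.1 and 86.2 (0.71, −0.11 to 1.54). The median difference was 0.25 over the 14 shared promoters of this list and 0.02 over all shared regions, with both WT scores above both KO scores in 6 of the 14 and the reverse in 1 (17.9% and 13.8% of all shared regions), and no member passed the test.

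Among the 54 interferon-stimulated genes 21, 35, 28 and 29 promoters had a peak, and with equal-length lists 21, 22, 18 and 28 (in the order WT_4, WT_5, KO_C5 and KO_D2), so that the genotypes overlapped in both. RSAD2 and CMPK2, antiviral neighbours with a common promoter region, were at percentiles 75.8, 77.3, 74.9 and 75.5 in WT_4, WT_5, KO_C5 and KO_D2, a difference in score of 0.01 (95% confidence interval −0.79 to 0.80). CD274, which encodes the checkpoint ligand PD-L1, was at 84.3 and 90.2 in WT against 91.3 and 91.2 in KO, a difference of −0.26 (−0.95 to 0.44). The only member with a genotype pattern was IFI16, a DNA sensor, which was KO-only at percentiles 13.1 in KO_C5 and 42.9 in KO_D2. That is 1 of 40 members with any peak (2.5%), against 0.15% of all protein-coding genes, and it was lost in equal-length lists.

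MHC class II genes had few promoter peaks: 1, 4, 1 and 3 of 12 in WT_4, WT_5, KO_C5 and KO_D2. HLA-DRA and HLA-DRB1 had none in any IFNγ library. CD74, the invariant chain, had one in WT_5 (percentile 67.6) and KO_D2 (36.0), and HLA-DMA, which loads peptides, was shared at 80.4 and 88.8 in WT and 81.7 and 77.1 in KO. Of the 8 genes listed for the MHC class II enhanceosome, CIITA itself among them, 7, 8, 8 and 8 had a promoter peak. Of the 20 MHC class I and peptide loading genes 15, 19, 17 and 18 had a promoter peak. B2M, the class I light chain, was at percentile 36.1 in WT_4, below 78.5 in WT_5, 70.7 in KO_C5 and 78.8 in KO_D2, and HLA-B and HLA-C lacked a peak in WT_4 alone. All 17 telomere protein genes that could be matched but 1 had a peak in each library, as did all 10 control genes.

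No shared region passed the test of rank between the genotypes. Of 14279 shared regions 0 (0%) passed an adjusted p of 0.05 in limma with Benjamini-Hochberg adjustment, and 406 had an unadjusted p under 0.05. The same was true of 0 regions by log2 fold enrichment (1205 unadjusted), by log2 summit pileup (307) and by percentile of the whole list (339). By unadjusted p, the region most in favour of WT lay at ARID3A, a DNA-binding factor gene (chr19:925068-926202), at percentiles 68.0 and 72.0 in WT_4 and WT_5 against 10.4 and 15.9 in KO_C5 and KO_D2. Its difference in score was 1.86 (limma, SE 0.37, adjusted p = 0.988). Its pileups were set against a local background of 0.621 and 0.770 fragments in WT and 2.96 and 3.73 in KO. A second promoter of PIK3CD (chr1:9689054-9689750) followed, with 59.3 and 74.3 against 26.2 and 6.59 and a difference of 1.68 (SE 0.34, limma, adjusted p = 0.988). SGO1-AS1, GSAP and a Y_RNA gene came next, with differences from 1.37 to 1.53. The regions named for SGO1-AS1 and the Y_RNA gene lay 134280 and 13434 bp from the start site.

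In the other direction the smallest p belonged to an intronic region 14014 bp from the start of the non-coding gene ENSG00000289003 (chr2:39494797-39495284). It was at percentiles 2.07 and 27.5 in WT against 56.4 and 60.5 in KO, a difference of −2.02 (limma, SE 0.34, adjusted p = 0.988). RN7SKP11 and RNU6-827P, both small-RNA pseudogenes, had −1.92 and −1.45, LINC01742 had −1.30 and NPEPPS, an aminopeptidase gene, −1.46. The regions named for RNU6-827P, LINC01742 and NPEPPS lay 6442, 13247 and 3457 bp from the start site. Counted by gene, the promoter of NPEPPS was WT-only, the opposite of the region named for it here. All these regions were shared. LINC01742 was the only one of these that was strong in each list, at 62.9 and 76.0 in WT against 94.6 and 92.5 in KO. In all 5 regions in favour of WT the local background was higher in both KO libraries than in both WT libraries. The same held for ENSG00000289003, RN7SKP11 and LINC01742 but not for RNU6-827P, where it was 1.64 and 1.995 in WT and 1.37 and 1.33 in KO, or for NPEPPS, where it was 1.39 and 1.69 against 1.60 and 1.87.

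The letters of the regions differed between the classes. In windows of 150 bp to either side of the summit, on both strands, TGANTCA was found in 207 of 412 KO-only regions (50.2%), 89 of 647 WT-only regions (13.8%) and 19.5% of all regions. AP-1 sites are known to lie mostly outside promoters, and outside promoters the shares were 52.8%, 21.5% and 28.0%. Among windows outside promoters with a GC content of 45 to 60% they were 56.4% (145 of 257), 26.7% (23 of 86) and 34.0% (4718 of 13896). GGGCGG was found in 53.6% of WT-only, 20.9% of KO-only, 76.2% of shared and 45.4% of all regions. The median GC content was 66.8% in WT-only, 51.8% in KO-only and 68.1% in shared regions.

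Under IFNγ the AP-1 letters went with the KO_D2 library. Outside promoters they were present in 51.4% of regions with a peak in KO_D2 alone (1146 of 2229), 55.4% of those of WT_4 and KO_D2 (103 of 186) and 43.6% of those of WT_5 and KO_D2 (408 of 935). Without KO_D2 the shares were 25.2% in KO_C5 alone (426 of 1691) and 25.0% in WT_5 and KO_C5 (754 of 3021). With KO_D2 left out and promoters included, regions called KO-only from KO_C5 alone held the letters in 27.6% of cases. That was 9.59 percentage points above the WT-only regions, in place of 36.5. Outside promoters the shares without KO_D2 were 29.9% of KO-only and 27.6% of WT-only regions. Over all peaks outside promoters the share was 24.4% and 25.2% in the WT libraries and 30.1% and 40.2% in the KO libraries (exact permutation p = 0.333, the smallest possible). In the untreated libraries it was 15.3% in WT_4, 32.1% in WT_5, 34.5% in KO_C5 and 28.1% in KO_D2, so KO_D2 did not stand out there. Of the untreated regions, promoters included, 21.1% of the 90 KO-only, 12.1% of the WT-only and 18.9% of all held TGANTCA. Outside promoters these untreated shares were 20.7%, 18.5% and 29.5%.

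**Figure D5:**
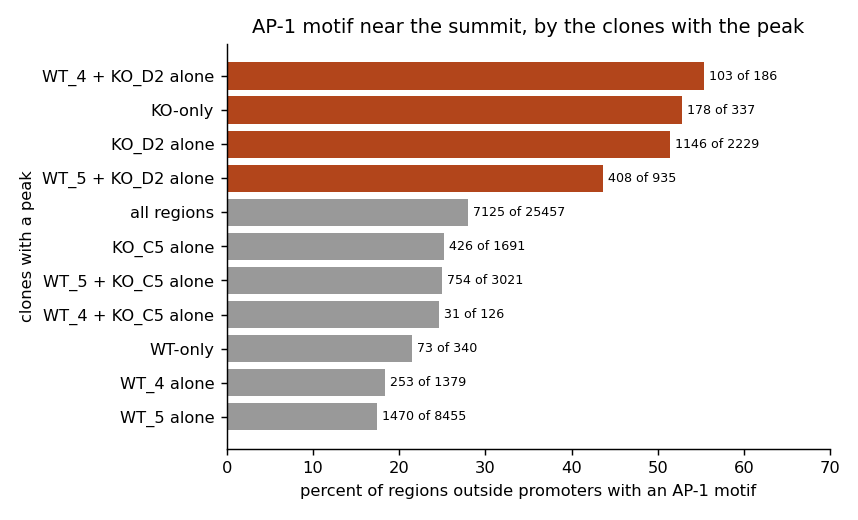
Share of regions outside promoters whose summit window holds TGANTCA (x axis, percent, with counts beside the bars), by the clones with a peak in the region (y axis), in red where KO_D2 is one of a named set of clones or the only one, and in grey otherwise. Regions of KO_D2 alone (51.4%) and of WT_4 with KO_D2 (55.4%) lie far above those of KO_C5 alone (25.2%) and of WT_5 with KO_C5 (25.0%).

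Other letters differed less. TTAGGG, the telomeric repeat unit that ZBTB48 binds, was present in 6.18% of WT-only, 8.98% of KO-only and 7.08% of all windows, and so was not more frequent in WT-only regions. A site that the study reports for ZBTB48 in CIITA promoter III holds no TTAGGG, so this count cannot tell whether a region holds a ZBTB48 site. GTGAGT, the scrambled control unit of the study, was in 10.7%, 25.97% and 16.4%. The ISRE letters GAAANNGAA were in 7.42% and 9.47% of WT-only and KO-only windows (7.70% of all). CCAAT, bound by NF-Y, was in 16.2% and 27.4% (26.2% of all), TGTGGT, bound by RUNX factors, in 14.4% and 22.3% (18.5% of all) and CCGGAAG, bound by ETS factors, in 4.33% and 4.85% (8.37% of all). The CTCF core was in 4.02% and 3.398% (3.44% of all).

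The same clones without IFNγ, whose lists the choice of regions did not use, were read at the same regions. A peak lay in 66.8% of WT-only regions in untreated WT_4 and 44.4% in untreated WT_5, against 27.4% in KO_C5 and 9.89% in KO_D2. Over all regions these shares were 41.3%, 58.2%, 37.8% and 36.1%, so WT_4 lay above its own background at WT-only regions and the other 3 libraries below theirs. In 115 of the 647 regions (17.8%) the untreated lists had the full WT-only pattern, against 2.77% of all regions. Of the KO-only regions 9.22% and 38.1% had a peak in untreated WT_4 and WT_5 and 23.3% and 10.9% in KO_C5 and KO_D2, and 7 (1.70%) had the KO-only pattern, against 0.181% of all regions. No untreated library had a peak in 17.3% of WT-only and 44.2% of KO-only regions, against 33.8% of all regions. With all 8 lists cut to 16730 peaks the shares at WT-only regions were 84.8%, 50.9%, 59.7% and 49.4% in WT_4, WT_5, KO_C5 and KO_D2, so that WT_5 lay between the KO clones. The WT-only pattern was then present in 26 of 330 WT-only regions (7.88%, against 1.17% of all regions) and the KO-only pattern in 14 of 390 KO-only regions (3.59%, against 0.547%).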

How the data were processed

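FAIRE-seq peak lists of 4 IFNγ-treated U2OS libraries (2 WT and 2 ZBTB48 KO clones) were compared, with the 4 untreated lists of these clones as a second reading. The authors trimmed reads with Trimmomatic, aligned them to GRCh38 with Bowtie2 2.2.5, filtered them by mapping quality with SAMtools 1.14 and called peaks per library with MACS2 2.2.7.1 in paired-end mode. deepTools 3.5.1 is also named in the submitters' processing notes. The deposited lists give the ratio of summit pileup to local background (fold enrichment), −log10 p, −log10 q and a score that was not used. The lowest deposited −log10 q was 1.30. They precede the reproducibility step of the study. The control library and the treatment of duplicates are not given in the sources used here, and read depth is not in the lists.

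Members and gene lists were chosen with earlier results of these data known. Regions were joined at 1 bp and annotated with GENCODE 44, with 500 bp to either side of a TSS as promoter. Pileup and local background were solved under the Poisson formula of MACS, and a whole number of fragments fitted 100% of peaks within 1e-05. For shared regions −log10 p was ranked within each library, turned into normal scores and tested with limma 3.58.1 (R 4.3.3, WT minus KO, 2 residual degrees of freedom before moderation, Benjamini-Hochberg). Per-library measures had the two-sided exact permutation test over 6 assignments. Python 3.11.15 was used for the rest. The fit was tested on simulated data. Some items are not reported here. Replicates are clones, so p-values measure the spread between these lines.

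Regions were named by rule: the 5 strongest WT-only and KO-only regions, the 10 strongest of each at protein-coding promoters, the 5 shared regions per direction with the smallest p, listed genes whose promoter was WT-only or KO-only, and the loci of the study. Regions are named for the gene whose TSS is nearest, and those at protein-coding promoters for the nearest protein-coding gene. Other listed genes were named after their values were seen. Alternatives were equal-length lists, minimum values of 3 for −log10 q and of 4 for fold enrichment, an overlap of 0.5, summit windows, other promoter widths, other rank measures, a replicate block and leaving out each library.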

Additional observations from a re-analysis of the deposited data

Results flagged for a closer look

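The change of local background with IFNγ, counted in fragments, ran in opposite directions in the 2 genotypes. From untreated to IFNγ-treated cells of the same clone, the lowest background of the list changed by −0.035 fragments in WT_4 and −0.254 in WT_5, and by 0.187 in KO_C5 and 0.452 in KO_D2. The median local background under the peaks changed by −0.00928 and −0.382 fragments in the WT clones and by 0.599 and 1.22 in the KO clones. In fragments both WT clones moved down and both KO clones up, and this difference was not tested. In WT_4 the median went only from 1.02 to 1.01. In KO_D2 the lowest background went from 0.626 to 1.08 and the median from 1.83 to 3.05. Lowest and median background thus moved the same way in each clone, and changes relative to the lowest background were not compared. Without IFNγ the median was already higher in KO_C5 and KO_D2, at 1.91 and 1.83 fragments, than in WT_4 and WT_5, at 1.02 and 1.55. The lowest backgrounds of these untreated lists were 0.719 and 0.626 in KO and 0.656 and 1.02 in WT. The higher KO background was therefore not particular to the treated libraries. The part of read depth was not tested. Each clone gave 1 library per condition, so the values of a clone cannot be told apart from those of its libraries.

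Outside chromosomes 1 to 22 and X the 4 IFNγ lists held 350 peaks (51 in WT_4, 122 in WT_5, 97 in KO_C5 and 80 in KO_D2), which entered none of the comparisons.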

How the results depend on the processing

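Several limits apply, since a list holds only what passed its own threshold, 2 clones stand for each genotype, and the WT_4 and WT_5 lists differ in length by more than the genotypes do. Cutting lists to equal length gave 349 WT-only regions and 76 KO-only promoter genes, a promoter share of WT-only minus KO-only regions of 38.3 percentage points (29.2 before), 0 for the WT minus KO number of libraries with a peak at CIITA promoter III and 1 at promoter IV, where the sign turned. It also turned the sign for enhanceosome promoters, to 0.5 in place of −0.5, where the 1 WT-only gene was CIITA, which is on that list. The share of KO-only regions with a peak in untreated WT minus KO turned as well, to −1.67 percentage points in place of 6.55. Summit windows gave 627 KO-only regions, and a window 500 bp wider gave a difference of 0 at promoter IV. Leaving out 1 library at a time gave 991 to 11541 WT-only regions (the most without WT_4). KO-only regions then numbered 513 to 5330 (the most without WT_5). The KO-only minus WT-only share with TGANTCA, promoters included, was 9.59 to 38.1 percentage points, lowest without KO_D2. These settings for TGANTCA were chosen after seeing the data. The other 106 values of these comparisons are those left once reversed and moved ones were set aside, and they include counts that cannot be negative. Their signs therefore say nothing of stability: 99 kept it and 7, all differences in listed promoters of at most 0.5, went to or from 0. Sizes moved among them: with equal-length lists the WT minus KO difference went from 1 to 2 for target promoters, from −0.5 to −1.5 for interferon-stimulated promoters, from 1.84 to 4.87 for median fold enrichment and from 36.9 to 13.3 percentage points for untreated peaks in WT-only regions. The exact tests could not reach significance under any setting. The limma count of called regions stayed at 0 under each alternative. Replicate numbers name different clones. With the number as a replicate block limma called 0 of the 14279 regions (448 unadjusted), and 0 with the KO numbers crossed (586, added after seeing the data). The differences between numbers correlated at −0.118 over regions.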
